A study of Cucumis melo with 27 samples.

Results

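The genes described here are melon (Cucumis melo) genes that were nearly silent in leaf and far more abundant in some groups of fruit libraries than in others, chosen by a rule on the RNA-seq counts themselves. Levels are in CPM, the count of a gene divided by the total of its library and scaled by 1e+06. A member had a mean in the high libraries of at least 8 times the mean of the low libraries plus 0.5 CPM, in each of 2 pairs of library groups, with no overlap between the libraries of a pair. Its mean over the 3 leaf libraries was under 1 CPM. The rule left out 6 named IDs, of which 5 were in the files, and none of these 5 (0) met its conditions. Of the 25200 genes in the files, 53 met the rule.

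The study sequenced mRNA of field-grown melon, from leaves of the cultivar F39, 14 days old, and from fruits of the cultivars F39 and TTDV. Fruits were picked 20-25, 30-35, 40 and 45 days (d) past flowering. The groups carried no treatment or engineered allele in the labels. There were 9 groups of 3 libraries, 27 in all, with 6025615 to 28731038 counts each, and no pair of files was identical (0 pairs). Replicate numbers only name libraries, in the order of their records. Separate plants or fruits are not stated for the libraries within a group, so p-values measure the spread between these libraries, which may be technical.

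The rule names libraries by number, and for 12 of the 27 libraries the number in the file differs from the number in the title of the sample the file is attached to. The numbers agree for leaf, for F39 fruit at 20-25, 30-35 and 40 d, and for TTDV fruit at 45 d, which are 15 libraries. Groups below follow the attachment, and the rule was read with the numbers of the files. The first pair of the rule was then F39 fruit at 40 d over F39 fruit at 20-25 d. Its second pair was the files attached to TTDV fruit at 30-35 d, which carry the numbers of TTDV at 40 d, over the files attached to F39 fruit at 45 d, which carry the numbers of TTDV at 20-25 d. By attachment the second pair thus compares different cultivars, and a rise within both cultivars describes the rule only if the file numbers are right. With the title numbers in place of the file numbers, 45 genes met the rule. Both readings shared 39 genes, which are 73.6% of the 53 and 86.7% of the 45.

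The rule did not use 12 libraries, those of F39 at 30-35 d and those attached to TTDV at 20-25, 40 and 45 d. By file number, the files attached to TTDV at 20-25 d are TTDV at 30-35 d, and those attached to TTDV at 40 d are F39 at 45 d. Tests were made only among these TTDV groups. The labels name tissue and harvest time and no cell type. In bulk fruit or leaf tissue, fewer cells of a type and less RNA per cell cannot be told apart.

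Melon is a fleshy fruit whose ripening brings softening of the flesh, accumulation of sugars and, in many types, of carotenoids, and the release of aroma compounds. In ripening types with a burst of ethylene, this gaseous hormone drives part of the programme, and transcription factors act above and beside it. Many genes of ripening are quiet in leaves and young fruits. The reference gene table matched 0 of the 25200 IDs, so members are given by ID, with no name, product or sequence, and none is assigned to these processes here.

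In leaf the members were low, as the rule required, with a median of the member means of 0.128 CPM. No count was found in any of the 3 leaf libraries for 13 of the 53 members, which allows up to 0.0503 CPM for each, with the limit covering counting error only. Of the other 40, 18 had a count in every leaf library. The 53 members together had 867 counts over the 3 leaf libraries, the largest single count was 35, and the highest level was 2.09 CPM. Nearest to the leaf limit among the members were MELO3C002311.2 with 0.975 CPM, MELO3C000937.2 with 0.937 CPM and MELO3C002689.2 with 0.894 CPM. Just outside the limit, among genes that met every other condition, were MELO3C018469.2 with 1.01 CPM, MELO3C022499.2 with 1.03 CPM and MELO3C013670.2 with 1.25 CPM. In all, 135 genes met every condition but the leaf limit, and 82 of them were at or over it. A low leaf level is common: 12739 of the 25200 genes had a leaf mean under 1 CPM.

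The libraries that chose the members are given as a description. The median of the 53 member means was 1.26 CPM in F39 fruit at 20-25 d and 59.4 CPM at 40 d, and it was 0.710 CPM in the files attached to F39 at 45 d and 44.0 CPM in those attached to TTDV at 30-35 d. A mean of at least 1000 CPM was reached by 8 members in F39 at 40 d and by 4 in the files attached to TTDV at 30-35 d. The smaller of a gene's 2 folds was 8.10 for MELO3C032910.2, 8.13 for MELO3C015277.2 and 8.4 for MELO3C000937.2, the members nearest to the threshold. The nearest genes below it were MELO3C018346.2 with 7.90, MELO3C007827.2 with 7.83 and MELO3C005988.2 with 7.70.

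**Figure D1:**
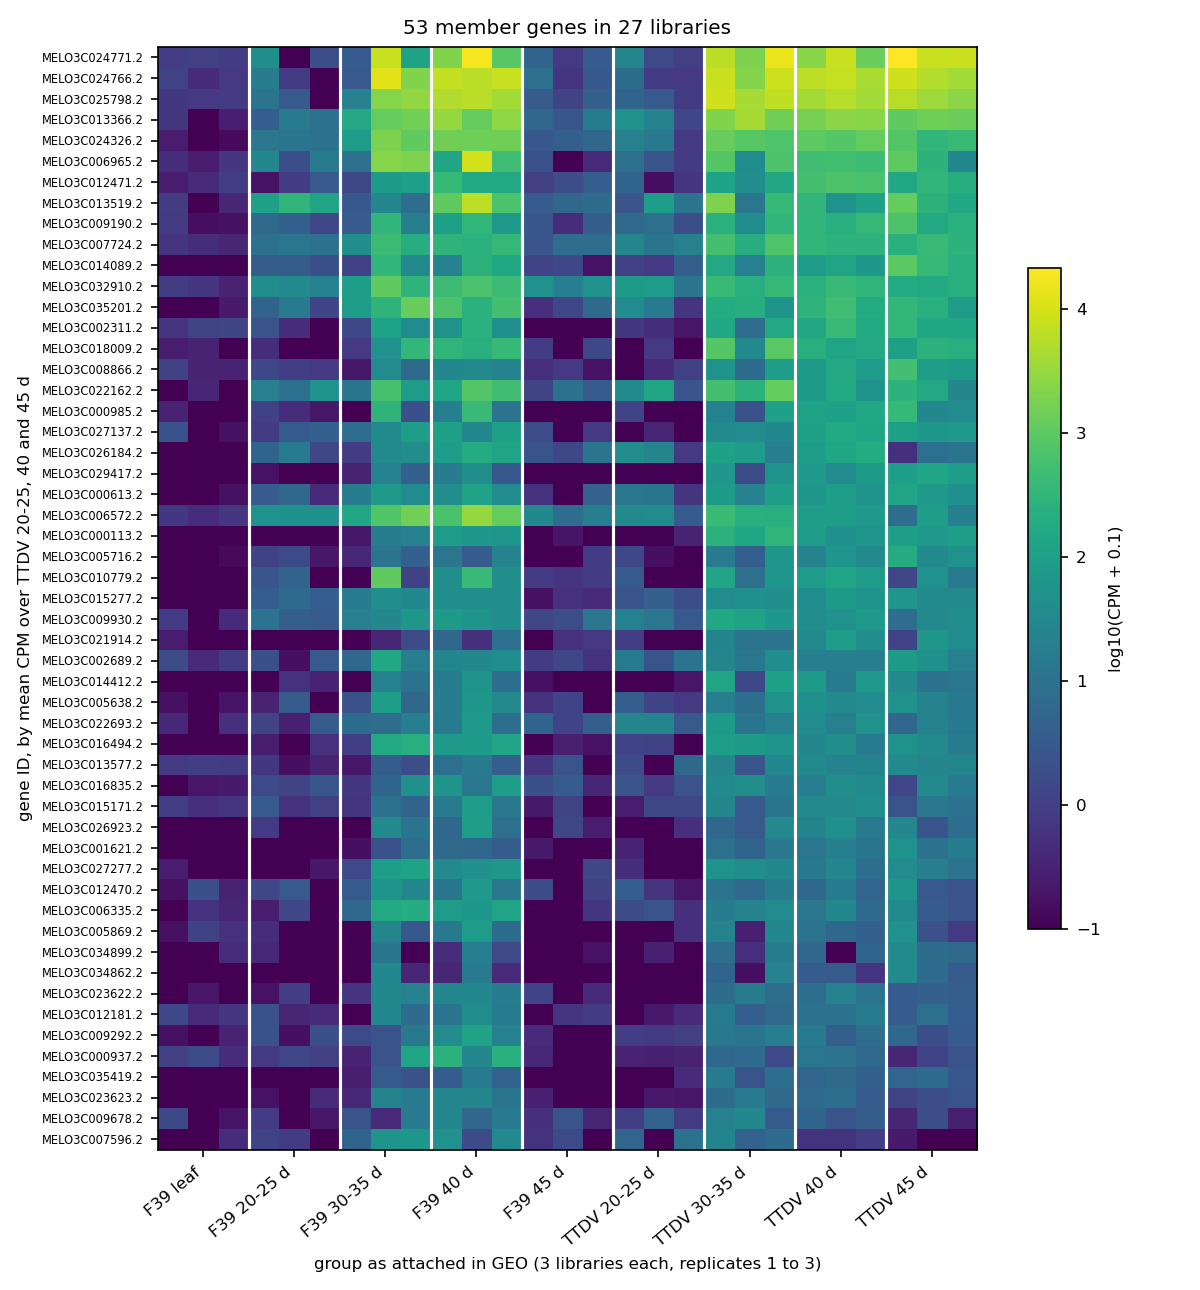
Level of each of the 53 members (rows) in each of the 27 libraries (columns, by group as attached in GEO), as colour on a log scale of CPM. The leaf columns and the F39 45 d columns are dark for nearly all members, and replicate 1 of F39 at 30-35 d looks unlike the other libraries of its group. Members were also low at 20-25 d, with medians of the member means of 1.26 CPM in F39 and 1.46 CPM in TTDV.

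Together the members held 0.00153% of all counts in leaf and 0.0424% ± 0.00934 (SD, n = 3) in F39 fruit at 20-25 d. In TTDV fruit at 20-25 d their share was 0.0503%, 0.0538% and 0.0107% in replicates 1, 2 and 3. At 40 d it was 2.0%, 2.92% and 1.77%, and at 45 d 4.56%, 2.19% and 1.88%. Every library at 40 or 45 d lay above every library at 20-25 d. The mean share was 2.19 percentage points higher at 40 than at 20-25 d, and the two-sided exact permutation test gave p = 0.1, the smallest that 3 against 3 libraries allow. Between 45 and 40 d the libraries overlapped (exact permutation p = 0.6). These 40 d libraries are F39 at 45 d by file number, and those attached to TTDV at 20-25 d are TTDV at 30-35 d. Most of the share came from MELO3C024771.2, MELO3C024766.2 and MELO3C025798.2, which held 1.44% of the counts on average at 40 d and 2.22% at 45 d.

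**Figure D2:**
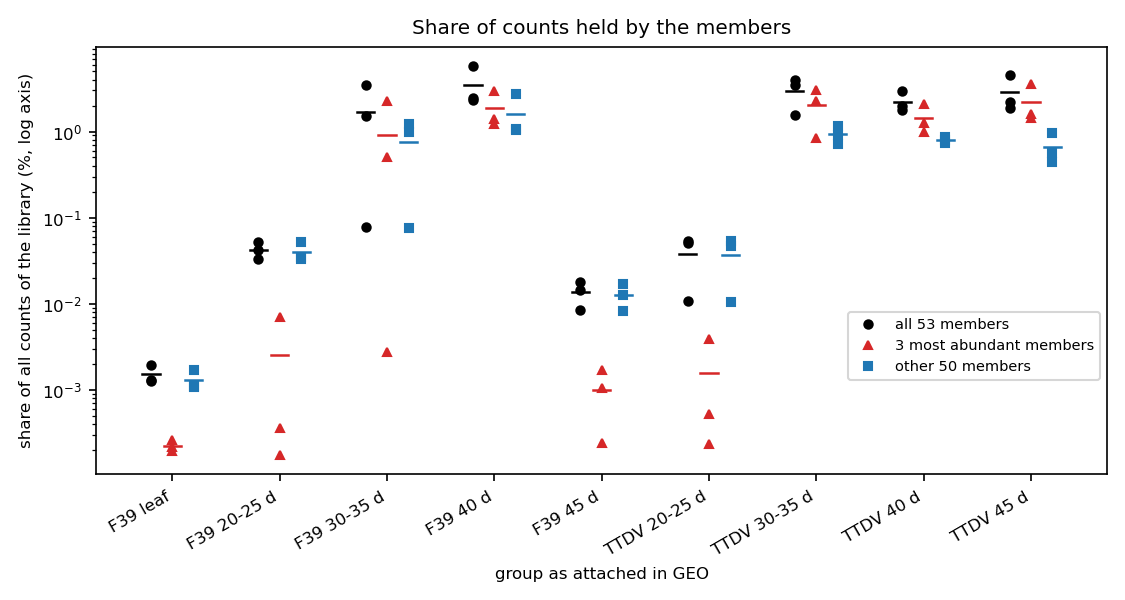
Share of all counts of each library held by the 53 members, by the 3 most abundant of them and by the other 50 (points: libraries; bars: group means; log axis in %). Leaf, F39 20-25 d, F39 45 d and TTDV 20-25 d lie at or below 0.0538%, and F39 30-35 d spans the gap, from 0.0789% to 3.47%.

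In TTDV fruit, most members were far more abundant at 40 than at 20-25 d, in libraries that had no part in choosing them. By the quasi-likelihood test of edgeR, Benjamini-Hochberg adjusted over 15130 genes, 40 of the 53 members rose (75.5%), none fell (0) and 13 were not called. Of all genes tested, 36.0% were called in either direction and 15.0% higher. All 53 members passed the filter on low counts. Every library at 40 d lay above every library at 20-25 d for 47 members, a share of 88.7% against 22.6% of all genes tested. The median log2 fold change was 5.72 for the members, or 5.71 with members at no count set to their bound, and -0.14 for all genes tested. The 82 genes that met the rule but for the leaf limit had 58 called higher (70.7%) and 1 called lower, with a median of 3.49. Every library at 40 d lay above every library at 20-25 d for 82.9% of them. The higher levels at 40 d were thus not particular to genes under the leaf limit. By file number, this comparison is F39 at 45 d against TTDV at 30-35 d.

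For the single members described next, groups follow the attachment. By file number, the libraries at 20-25 d and those at 40 d are of different cultivars. A rise between these groups is thus a rise within TTDV only by attachment. Ordered by counts in the TTDV libraries, which are not corrected for gene length, MELO3C024771.2 came first. It had 26.9, 1.37 and 0.903 CPM in the 3 libraries at 20-25 d, 2469, 7728 and 1287 CPM at 40 d, and 21410.0, 7532 and 7912 CPM at 45 d. The early and late libraries did not overlap, while those at 40 and 45 d did. Its log2 fold change from 20-25 to 40 d was 8.38 (SE 2.47, edgeR Benjamini-Hochberg adjusted p = 0.0121), and leaving out 1 library moved it between 7.21 (replicate 2 of 40 d left out) and 11.71 (replicate 1 of 20-25 d left out).

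MELO3C024766.2 had 7.46, 0.785 and 0.678 CPM at 20-25 d, 6418, 7360 and 4521 CPM at 40 d, and 8803, 5158 and 3876 CPM at 45 d. The 2 late groups overlapped and lay far above the early one. The log2 fold change to 40 d was 10.75 (SE 2.25, edgeR Benjamini-Hochberg adjusted p = 0.00115). Leaving out 1 library moved it between 10.20 without replicate 3 and 12.99 without replicate 1 of 20-25 d. MELO3C025798.2 rose by as much, from 5.19, 3.07 and 0.791 CPM at 20-25 d to 3813, 5546 and 3971 CPM at 40 d, with 5757, 3485 and 2586 CPM at 45 d. Its log2 fold change to 40 d was 10.31 (SE 1.58, edgeR Benjamini-Hochberg adjusted p = 9.87e-05). With 1 library left out it was between 9.78 without replicate 3 and 11.05 without replicate 1 of 20-25 d. Again the groups at 40 and 45 d overlapped.

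The next members by counts had higher early levels. MELO3C013366.2 had 50.8, 23.9 and 1.24 CPM at 20-25 d and 1763, 2518 and 2387 CPM at 40 d, a log2 fold change of 6.20 (SE 1.19, edgeR Benjamini-Hochberg adjusted p = 5.91e-04). All 3 of its libraries at 45 d, with 1089, 1444 and 1368 CPM, lay below those at 40 d. MELO3C024326.2 had 20.6, 14.1 and 0.678 CPM at 20-25 d and 1007, 856 and 1195 CPM at 40 d, a log2 fold change of 6.18 (SE 1.03, edgeR Benjamini-Hochberg adjusted p = 1.89e-04). It too had all libraries at 45 d, with 785, 327 and 386 CPM, below those at 40 d. Early replicate 3 was the lowest of its group for both genes. Leaving out 1 library moved the first change between 5.59 without early replicate 3 and 7.31 without early replicate 1, and the second between 5.57 and 6.93 without the same libraries.

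MELO3C006965.2 had even levels at 40 d and uneven ones at 45 d. Its levels were 9.24, 2.48 and 0.791 CPM at 20-25 d, 492, 517 and 451 CPM at 40 d, and 1023, 275 and 31.4 CPM at 45 d. Its rise to 40 d (log2 fold change 6.61, edgeR Benjamini-Hochberg adjusted p = 0.0128) was not called without replicate 2 of 20-25 d, with an adjusted p of 0.0527 in edgeR. The log2 fold change was 6.05 without replicate 3 and 8.10 without replicate 1 of 20-25 d. MELO3C012471.2 rose from 5.11, 0.0654 and 0.565 CPM to 564, 699.8 and 643 CPM at 40 d, with a log2 fold change of 8.13. That change was 7.55 without replicate 2 and 11.17 without replicate 1 of 20-25 d. MELO3C009190.2 rose from 6.73, 9.35 and 1.81 CPM to 325, 227 and 359 CPM, and MELO3C007724.2 from 27.5, 10.9 and 20.8 CPM to 321, 285 and 281 CPM. None of these 4 genes had an early library above a library at 40 d. The remaining one of the 10 members with most counts, MELO3C013519.2, was not called at 40 d: 2.43, 91.0 and 11.4 CPM at 20-25 d overlapped with 316, 53.8 and 114 CPM.

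**Figure D3:**
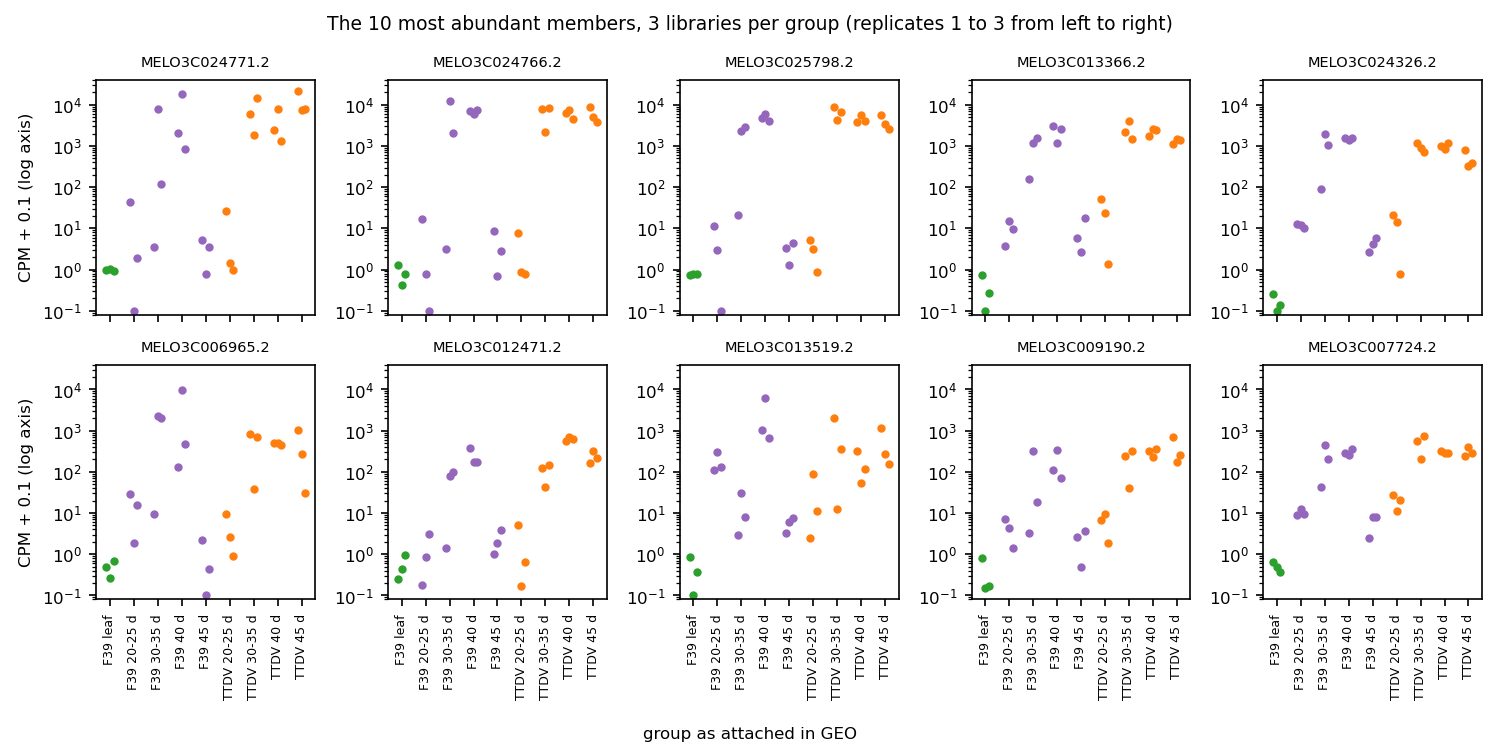
Level of the 10 members with most counts in the TTDV libraries not used by the rule, in all 9 groups (1 panel per gene; points: libraries; log axis, CPM plus 0.1). In 9 of the 10 panels the TTDV points at 40 d lie above all those at 20-25 d, and MELO3C013519.2 is the exception.

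Some members had no or almost no count in the early libraries and a clear level in those at 40 d. By file number these groups are of different cultivars, so this is a course within TTDV only by attachment. MELO3C029417.2 had no count in leaf and none in TTDV at 20-25 d, then 72.3, 37.3 and 80.7 CPM at 40 d and 96.3, 136 and 91.3 CPM at 45 d. Set against a floor of 3 counts over the early group, it was at least 772-fold higher at 40 d (edgeR Benjamini-Hochberg adjusted p = 9.93e-04) and at least 1312-fold higher at 45 d. All of its libraries at 45 d exceeded those at 40 d, a difference that was not called. MELO3C000113.2, also at no count in leaf, had 2 counts in the early group and 86.7, 47.8 and 60.8 CPM at 40 d, a ratio of 865 with a 95% counting interval of 239 to 7140. MELO3C023622.2 had no early count and was at least 168-fold higher at 40 d. MELO3C034862.2 had none either and was at least 29.3-fold higher, with only 3.54, 3.15 and 0.524 CPM at 40 d, and was not called.

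Of the 13 members not called at 40 d, the 5 with the lowest log2 fold changes, signs included, are given in full, and the other 8 had log2 fold changes of 1.58 for MELO3C006572.2 and upward. MELO3C022162.2 had 34.1, 143 and 2.48 CPM at 20-25 d and 78.3, 176 and 54.4 CPM at 40 d. MELO3C022693.2 had 26.2, 26.6 and 2.94 CPM early and 37.5, 20.7 and 55.9 CPM at 40 d. Both overlapped between the groups, with log2 fold changes of 0.63 and 0.79, and the first was -0.11 without replicate 2 of 40 d. MELO3C002689.2 did not overlap, with 16.7, 2.35 and 10.7 CPM against 19.5, 19.1 and 19.1 CPM, but its log2 fold change was 0.82 (edgeR Benjamini-Hochberg adjusted p = 0.524), or 0.36 without replicate 2 and 1.68 without replicate 1 of 20-25 d. MELO3C009678.2 stayed low in both groups, at 0.892, 4.71 and 0.791 CPM and 5.06, 2.49 and 3.67 CPM. The single member with a negative log2 fold change, -3.03, was MELO3C007596.2, with 5.43, 0 and 10.1 CPM early and 0.506, 0.498 and 0.839 CPM at 40 d (edgeR Benjamini-Hochberg adjusted p = 0.119).

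In TTDV at 45 against 20-25 d, which shares the early libraries with the comparison above, 38 members rose and 1 fell by the same test, and 14 were not called. Of all genes tested, 15.5% were called higher, 19.5% lower and 35.0% in either direction. For 42 members every library at 45 d lay above every early library, against 20.5% of all genes tested. The median log2 fold change was 5.42 for the members and -0.06 for all genes tested. Among the 82 genes at or over the leaf limit, 58 were called higher and 4 lower, with a median of 3.32. The share called higher was 70.7% for them and 71.7% for the members. The share with every library at 45 d above every early library was 76.8% and 79.2%. By file number this is TTDV at 45 d against TTDV at 30-35 d.

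The member that fell was MELO3C007596.2, with 0.140, 0 and 0 CPM at 45 d, which is 1 count in the group. Its level was lower by a ratio of 111, with a 95% counting interval of 19.9 to 4374 (edgeR Benjamini-Hochberg adjusted p = 0.0184). The early libraries, at 5.43, 0 and 10.1 CPM, were not all above the late ones. The call was lost without replicate 2 of 45 d, with an edgeR adjusted p of 0.0599, or without replicate 3, with 0.0721. It met the rule through F39, where it had 49.1, 1.54 and 33.1 CPM at 40 d, and through the files attached to TTDV at 30-35 d, with 25.6, 4.73 and 7.53 CPM. MELO3C013519.2, with 1168, 275 and 155 CPM at 45 d, lay above its early libraries and had an edgeR Benjamini-Hochberg adjusted p of 0.0503.

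**Figure D4:**
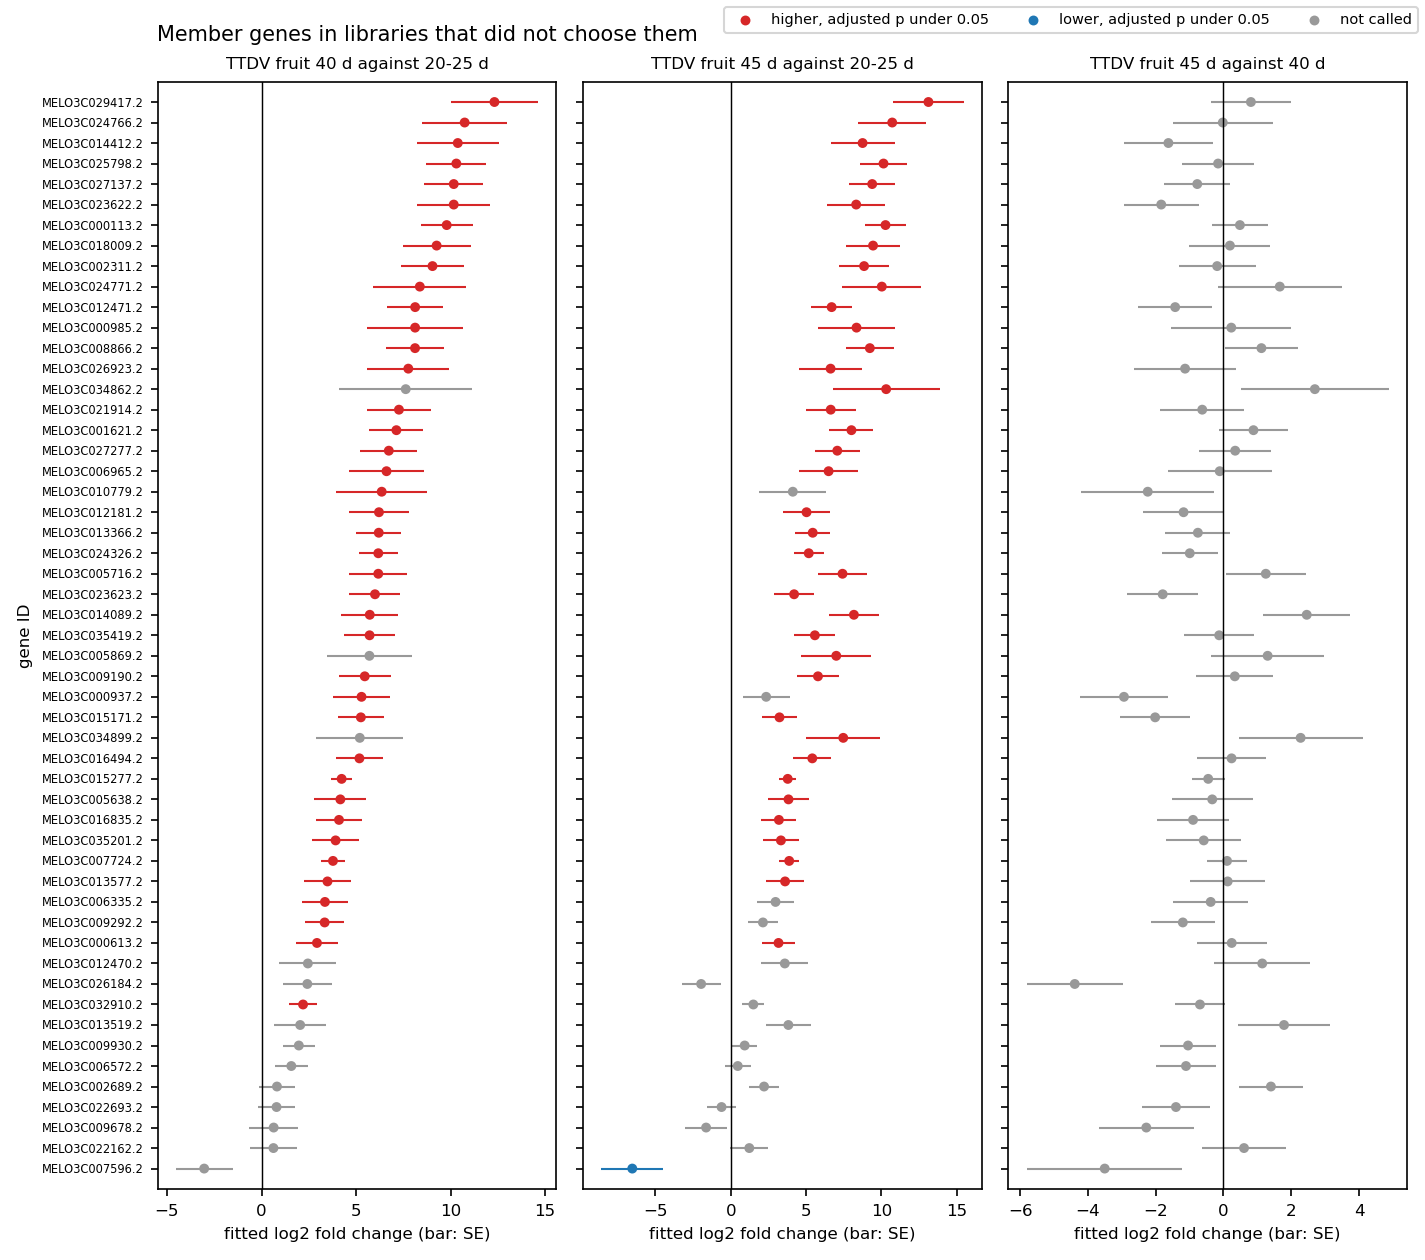
Fitted log2 fold change (x axis, bars: SE) of each of the 53 members in 3 comparisons of libraries that the rule did not use (red, higher; blue, lower; grey, not called at an adjusted p of 0.05). The first 2 panels share the early libraries and the third shares its groups with both. Points of the first 2 panels lie mostly right of 0, and those of the third lie on both sides.

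Between 40 and 45 d in TTDV no member was called (0 of 53) by edgeR with the same Benjamini-Hochberg adjusted test, and of all genes tested 0.218% were called higher, 0.0793% lower and 0.297% in either direction. At an unadjusted p under 0.05 there were 2 of the 53 members, against 1356 of the 15130 genes tested. DESeq2 called 1 member, and the share of all genes that it called is not given here. For 15 members (28.3%) every library at 45 d lay below every library at 40 d, against 8.86% of all genes tested. For 4 members (7.55%) every library at 45 d lay above, against 9.33%, and 34 overlapped. Of the 82 genes at or over the leaf limit, 20.7% lay below and 4.88% above. The median log2 fold change was -0.19 for the members, -0.16 for those 82 genes and 0.03 for all genes tested. This comparison, and the levels at 40 and 45 d given next, set TTDV at 45 d against F39 at 45 d by file number.

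The member that DESeq2 called was MELO3C026184.2. It had 90.6, 145 and 197 CPM at 40 d and 0.420, 8.91 and 10.9 CPM at 45 d, with no overlap. Its log2 fold change was -4.39 in edgeR (Benjamini-Hochberg adjusted p = 0.259) and -4.43 in DESeq2 (adjusted p = 0.0182). At 20-25 d it had 41.0, 26.2 and 0.678 CPM, so that its late levels at 45 d overlapped with the early ones. In the other direction, MELO3C014089.2 had 88.6, 129 and 68.6 CPM at 40 d and 963, 381 and 217 CPM at 45 d. Its libraries did not overlap either, and the log2 fold change of 2.46 was not called (edgeR Benjamini-Hochberg adjusted p = 0.605). It was 1.62 without replicate 1 of 45 d.

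F39 fruit at 30-35 d held libraries at different levels of the same genes. Since the rule used the groups on either side, the levels are given as a percentage of the F39 40 d mean, with no test. The median over the 53 members was 1.31% in replicate 1, 96.3% in replicate 2 and 41.5% in replicate 3. Replicate 1 had 43 members under 10% and none (0) at 50% or more. Replicate 2 had 35 members at 50% or more and 26 at or above the 40 d mean, and replicate 3 had 26 and 9. The median of the group means was therefore 52.0%. It was 21.0% when replicate 2 of the 30-35 d group was left out, and 81.7% when replicate 2 of F39 at 40 d was.

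**Figure D5:**
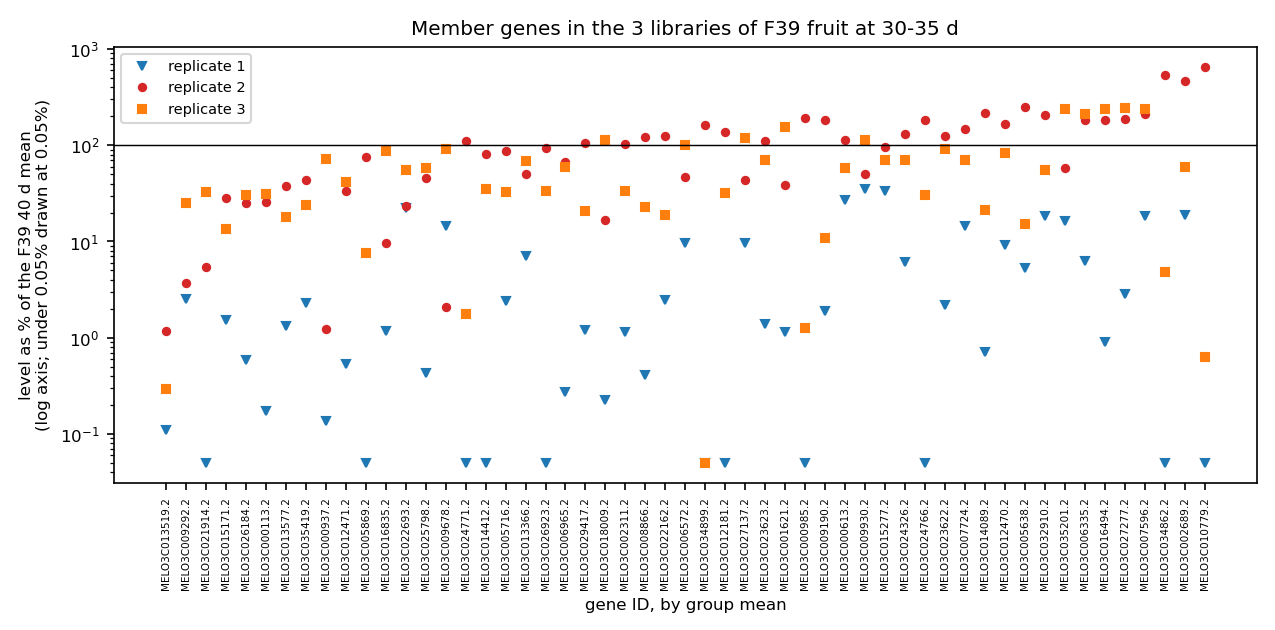
Level of each member in the 3 libraries of F39 fruit at 30-35 d, as % of its F39 40 d mean (log axis; genes ordered by group mean; line at 100%). Replicate 1 lies lowest for 52 of the 53 members, counting MELO3C034899.2, where it ties with replicate 3 at 0 CPM.

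Replicate 1 lay above all 3 libraries of F39 at 20-25 d for 24 members, and replicates 2 and 3 did so for 51 and 50. Of all genes tested, 21.6% lay above them in replicate 1, and nothing is read from the members' counts, since the rule chose them for low values in these early libraries. In replicate 1 MELO3C013366.2 had 162 CPM against at most 14.9 CPM at 20-25 d, MELO3C035201.2 had 83.4 against at most 15.3 CPM, and MELO3C024326.2 had 90.3 against at most 12.6 CPM. In the same library MELO3C025798.2 had 21.0 CPM, also above its early maximum of 11.1 CPM. MELO3C024771.2 with 3.40 CPM and MELO3C024766.2 with 3.03 CPM were below theirs, the first of them having 43.1 CPM in an early library.

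Among members with a mean of at least 10 CPM in F39 at 40 d, the lowest at 30-35 d relative to that mean was MELO3C013519.2 at 0.522%. It had 112, 306 and 129 CPM at 20-25 d, 2.91, 31.1 and 7.90 CPM at 30-35 d, and 1046, 6334 and 646 CPM at 40 d, so that all libraries at 30-35 d lay below both other groups. The next lowest of them were MELO3C009292.2 at 10.4% and MELO3C015171.2 at 14.3%. The highest of them were MELO3C010779.2 at 218%, MELO3C002689.2 at 181% and MELO3C007596.2 at 156%. The first of these rested on replicate 2, with 0, 1065 and 1.01 CPM in the 3 libraries, and so did the second, with 6.25, 153 and 19.3 CPM.

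The members differed among 4 groups picked because the members were high there, F39 at 40 d and the files attached to TTDV at 30-35, 40 and 45 d. The files attached to F39 at 45 d, where the median of the member means was 0.710 CPM and 6 members had no count, were not among them. The highest group mean was found in F39 at 40 d for 23 members, at TTDV 30-35 d for 10, at TTDV 40 d for 8 and at TTDV 45 d for 12. The lowest was found there for 7, 7, 14 and 25 members. The rule used the first 2 of these groups, so this order is a description. The highest of the 4 means over the lowest had a median of 4.24 and ranged from 1.15 for MELO3C024766.2 to 599 for MELO3C007596.2. It was within 2-fold for 8 members, within 4-fold for 25 and at least 10-fold for 9. Of the 9, MELO3C000937.2 had 268, 29.5 and 248 CPM in F39 at 40 d against 12.2, 10.8 and 6.40 CPM in TTDV at 40 d and 0.280, 1.08 and 2.26 CPM at 45 d. No library of the 2 TTDV groups reached any of the F39 ones. The files attached to TTDV at 40 d carry the numbers of F39 at 45 d, so this is a difference of cultivars only by attachment. The rule also chose the gene for high values in F39 at 40 d.

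Within a group the level of a member could rest on 1 library. A single library held more than 2 of every 3 parts of the group's summed CPM for 16 members in F39 at 40 d, in each case replicate 2. It did so for 30 in F39 at 30-35 d, 21 of them in replicate 2, for 15 in TTDV at 45 d, 12 of them in replicate 1, for 8 at TTDV 30-35 d and for 1 at TTDV 40 d. MELO3C000985.2 is an example, with 19.6, 416 and 10.4 CPM in F39 at 40 d, 0, 286 and 1.89 CPM at F39 30-35 d, and 373, 29.7 and 36.6 CPM in TTDV at 45 d. At TTDV 40 d it was even, with 121, 113 and 149.9 CPM. The lists for F39 40 d replicate 2 and F39 30-35 d replicate 2 shared 11 members, 68.8% of the first and 52.4% of the second. The lists for F39 40 d replicate 2 and TTDV 45 d replicate 1 shared 8, which are 50% of the first and 66.7% of the second. The 6 members in all 3 lists were MELO3C000985.2, MELO3C005869.2, MELO3C013519.2, MELO3C026923.2, MELO3C034862.2 and MELO3C034899.2, chosen for mention after their values were seen. The part of these libraries in the order of the 4 groups was not tested. In groups where members were low, 1 library held as large a part for 20 members in leaf and 25 in F39 at 20-25 d. The number was 27 in the files attached to F39 at 45 d and 29 in those attached to TTDV at 20-25 d. The share of all genes resting on 1 library was not taken, so nothing is read from these counts or overlaps about the members.

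Some members had IDs next to or near each other in number, and the files give no positions. MELO3C023622.2 and MELO3C023623.2 differ by 1. In F39 at 40 d, where the rule required high levels, they had 27.5, 30.9 and 17.7 CPM and 27.9, 28.0 and 11.1 CPM. In TTDV at 40 d, which the rule did not use, they had 8.23, 22.6 and 10.6 CPM and 7.09, 8.46 and 3.25 CPM. MELO3C012470.2 and MELO3C012471.2 also differ by 1 and had 6.33, 16.6 and 5.45 CPM and 564, 699.8 and 643 CPM in TTDV at 40 d. MELO3C024766.2 and MELO3C024771.2 differ by 5, and both were among the 3 members with most counts. Where members are near-identical copies, their counts are uncertain, because no source used here states how reads matching several genes were counted.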

How the data were processed

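RNA was extracted from powdered frozen leaf and fruit tissue and made into mRNA-seq libraries, per the labels' protocols. The deposited files hold whole-number counts per gene, not normalized, with 1 file per library. The submitters' processing notes name STAR 2.5.4b and edgeR 3.12.1 without their roles. Not given in the sources used here are the counting program, genome build, annotation and use of strand.

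Groups came from sample titles and files from their attachment in GEO. CPM used the column total. Members, named genes and comparisons were chosen with earlier results of these data known. Named genes were the 10 members with most counts in the tested TTDV libraries, the 5 with the lowest signed log2 fold change from 20-25 to 40 d, the 3 highest and 3 lowest at F39 30-35 d among members with at least 10 CPM at 40 d, the 3 on each side of the fold threshold, the 3 highest in leaf and 3 at no leaf count with most counts. Members that edgeR called between 45 and 40 d with no overlap were to be named too, and there were none (0), while DESeq2 called 1. Other genes named were chosen after their values were seen.

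Counts were tested with edgeR 4.0.16 in R 4.3.3 (filterByExpr, TMM, 1 mean per group over 27 libraries, robust quasi-likelihood F-test, Benjamini-Hochberg adjustment over 15130 genes, threshold 0.05). The script was first run on simulated counts with the same spread setting for every gene. That run does not show the error rate of the calls in these libraries. For a member at no count in a group, the bound used 3 counts over that group as floor, and with 1 to 3 counts a ratio with its exact 95% counting interval is given. Both allow for counting error alone. Depth of 6025615 to 28731038 counts per library limits the precision of low genes. Alternatives were DESeq2 1.42.0, median-of-ratios scaling, no filter, a stricter filter, fits with fewer groups, other thresholds and numbers in the rule, and leaving out each library in turn. Python 3.11.15 with pandas 2.3.3 and scipy 1.17.1 was used for tables and permutation tests.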

Additional observations from a re-analysis of the deposited data

How the results depend on the processing

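The number of members was 80 with the fold threshold at 4 times and 30 at 16 times, and between 39 and 62 under the other settings of the rule. Leaving out each library of the rule in turn gave 47 to 59 members. Members called at TTDV 40 against 20-25 d numbered 36 to 43 under other tools, filters, scalings and sets of groups, and 30 to 38 with a library left out. At 45 against 20-25 d they numbered 33 to 43, and 28 to 37 with a library left out. The 45 genes by title number gave 42 and 38, which are circular, since that reading used both groups of the first comparison and the early group of the second. At 45 against 40 d DESeq2 called 1 member and the other settings 0, with 0 also in each fit without a library. The difference in the members' share of counts, 40 minus 20-25 d, was 0.758 percentage points without the 3 most abundant members, and 1.85 to 2.42 points with a library left out. The median level at F39 30-35 d ranged from 21.0% to 81.7% of the 40 d mean with a library left out. MELO3C022162.2 at 40 against 20-25 d had a log2 fold change between -0.11, a reversal, without TTDV 40 d replicate 2 and 2.26 without TTDV 20-25 d replicate 2. The rise of MELO3C006965.2 at 45 against 20-25 d was not called without TTDV 20-25 d replicate 2 (edgeR adjusted p = 0.0560) or TTDV 45 d replicate 1 (0.0559). MELO3C013519.2 at 45 against 20-25 d was called by DESeq2 (adjusted p = 0.00786). The cause of these changes was not tested, apart from the alternatives that by construction hold fewer libraries or genes. No paired analysis was possible because the library numbers are unique to each sample and the replicate numbers only follow record order. Counts per library limit what can be said of members with a few counts, and with 3 libraries a group the exact permutation test of a single value cannot go below p = 0.1.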
